A study of Mus musculus with 36 samples.

Results

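These data describe what happened to the transcriptome of mouse hepatocytes when mouse GKRP-446L was added to overexpressed glucokinase (GK). The members were chosen by their labels: 3 cultures that received the vectors for mouse GKRP-446L and GK (GK+mL) and 6 cultures that received the GK vector alone (GK), 9 of the 36 cultures sequenced. Hepatocytes came from 3 female mice of the line GCKR-P446L-EMI-B6N, aged 14 weeks. By the genotype labels the first 2 animals were Gckr-446L, while mouse 3 was Gckr-446P/L, and the series describes the cells of all 3 as deficient in GKRP. Every group of this report shares these animals, and each mouse gave 1 GK+mL culture and 2 GK cultures. The 2 GK cultures of a mouse were added together, so n = 3 mice per group. After attachment the cells received their vectors, were cultured for 24 h at 5 mM glucose with dexamethasone and insulin (10 nM each), and were then incubated for 4 h with 25 mM glucose. The comparison groups were untreated cells (UN), mouse GKRP-446L at endogenous GK (mL), and GK with mouse GKRP-446P (GK+mP) or human GKRP-446L (GK+hL). No group received an empty vector. GK+mL cells carried 2 vectors and GK cells carried 1, so the added GKRP and the added vector cannot be told apart in GK+mL against GK. GK+mP and GK+hL carried 2 vectors as well.

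GK phosphorylates glucose and sets the pace of glucose use in hepatocytes. GKRP, the product of Gckr, binds GK, inhibits it and holds it in the nucleus, and fructose or high glucose releases the enzyme. The exchange of proline for leucine at residue 446 of GKRP is a common human variant associated with plasma triglycerides and glucose. A high flux through GK raises hexose phosphates, which activate the transcription factor ChREBP and its target genes. The present comparison asks how far mouse GKRP-446L turned back the transcriptional response to GK.

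Gckr lies on chromosome 5. In the annotated transcript ENSMUST00000201166 codon 446 is in exon 15 of 19, at chr5:31466275-31466277 of GRCm39 (plus strand). The reference codon reads CCA, proline. The stretch is shown because the vectors differ at this codon, which stands in capitals, with 30 coding bases on each side, spliced from exons 15 and 16:
Gckr, around codon 446: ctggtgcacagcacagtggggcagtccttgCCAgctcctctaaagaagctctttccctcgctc
The deposited values are reads per transcript, so which residue the reads carried was not measured.

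Gckr reads separated the groups. Gckr stood at 10940, 9010 and 14480 CPM (reads of a gene scaled to the size of the library) in GK+mL cells of mice 1, 2 and 3, and at 54.5, 69.6 and 845 CPM in GK cells. The groups did not overlap. The mean log2 ratio within mice was 6.26 ± 1.89 (SD, n = 3). The exact permutation test over the 6 samples, which ignores that the mice are shared, gave p = 0.1, its smallest value. The exact test on signs within the 3 mice gave p = 0.25, the smallest a paired comparison of 3 allows. GK+mP cells held 16440 ± 3220 CPM and mL cells 14280 ± 3010 CPM (SD, n = 3). Between 74.35 and 90.0% of the Gckr reads in the GK+mL cultures were assigned to ENSMUST00000201166. The sources differ on the mouse vector: the series text gives another Gckr transcript model than the sample labels, which name transcript-1. The study states that it used transcript-1 after its first tests of isoforms, and its supplement gives ENSMUST00000201166 the same protein length. Because the sources differ, the isoform of the mouse GKRP groups was not settled here.

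The high value of mouse 3 among the GK samples came from a single culture. GK culture 5 held 1462 CPM of Gckr, and the other 5 GK cultures held 51.8 to 98.0 CPM. Of its Gckr reads, 87.83% were assigned to ENSMUST00000201166, and in the other 5 this share was 44.16 to 53.71%. This library goes against its label, and the counts of calls in GK+mL against GK and against GK+mP are also given without it. Of the 26 called genes that the naming rule took in GK+mL against GK, 2 lost the call without this library. Without it 220 genes passed the test upward and 53 downward in GK+mL against GK, compared with 219 and 55 with it.

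**Figure D1:**
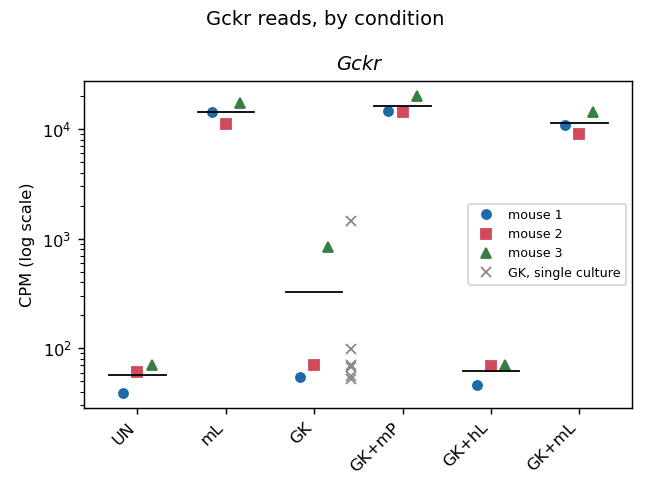
Reads of mouse Gckr in CPM on a log axis for 6 conditions. The message of the human vector in GK+hL was not measured. Coloured symbols are the 3 mice, horizontal lines the means, and grey crosses the 6 single GK cultures. Gckr in GK+mL lies between 9010 and 14480 CPM, and 1 GK culture stands at 1462 CPM.

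The 9 libraries held 4271540 to 10046158 reads, within the 3924674 to 10046158 of the whole series. The hepatocyte label held: the 12 hepatocyte markers summed to 106000 to 145000 CPM in GK+mL and 97600 to 142000 CPM in GK. Macrophage markers summed to 292 to 345 and 310 to 363 CPM, and cholangiocyte markers to 16.5 to 156 and 23.1 to 190 CPM. Endothelial and stellate markers summed to 113 to 225 and 118 to 205 CPM. No gene of the 4 marker lists passed the test. Krt7, Krt19, Epcam, Des, Col1a1, Acta2 and Pdgfrb fell under the filter on low counts.

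GK+mL against GK. Genes of DNA replication were among the raised genes with the smallest p, and a smaller set of genes, among them Pklr and Slc2a2 of the glucose response, fell. Of 12176 genes tested, 219 were raised (1.8%) and 55 lowered (0.452%), at an adjusted p under 0.05 and a fold of at least 1.3 or at most 0.7 in edgeR's quasi-likelihood test with the mouse as a block. The median log2 fold change was 0.90 over the raised genes and -0.63 over the lowered genes, and 0.01 over all genes. Of the raised genes 95 passed 2-fold, and of the lowered genes 5. All 3 mice moved the same way for 217 of the 219 and for 55 of the 55. Over all genes 17.9% were higher and 18.6% lower in every mouse. The called genes were picked on these same samples, so the agreement of the mice is no separate evidence.

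The counts depended on the animals and on the pairing. Without the block 68 genes were raised and 4 lowered. Without mouse 3, 51 were raised and 6 lowered. With mouse 1 or mouse 2 left out the raised genes numbered 125 and 108, and the lowered genes 57 and 20. The bulk samples cannot tell a change in the number of cells from a change in RNA per cell.

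Cells copy their DNA in S phase, when the transcription factor E2F switches on the genes of the replication machinery. Adult hepatocytes are normally at rest. From the list of 44 replication and S phase genes, all tested, 31 were raised (1.8% of all genes), none lowered, and 13 did not pass. The list was chosen with earlier results of these data known, so its counts here and below are not independent evidence. The median log2 fold change was 1.02. In 38 of 44 the GK+mL sample was higher than the GK sample in every mouse (17.9% of all genes), and in 36 of 44 all GK+mL samples lay above all GK samples (6.73% of all genes). The sum over the 44 genes was 1230 to 1500 CPM in GK+mL and 542 to 710 CPM in GK. With mouse 3 left out 16 of the 44 passed, without the block 20, and without GK culture 5 29. With only the groups compared 7 of 42 passed, and with no block and endogenous GK as 1 group 0 of 44.

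Subunits of the MCM helicase, which unwinds DNA at the replication fork, had the smallest p in the list. Mcm3 stood at 79.3, 65.7 and 82.0 CPM in GK+mL and at 23.2, 21.5 and 25.8 CPM in GK. Every GK+mL sample lay well above every GK sample. The log2 fold change was 1.68 ± 0.09 (SE; adjusted p = 2.92e-10). Mcm4 went from 12.6, 12.1 and 18.3 CPM to 67.1, 47.6 and 63.4 CPM, a log2 fold change of 2.05 ± 0.12 (adjusted p = 4.22e-10). Its GK value in mouse 3 includes culture 5, which held 22.3 CPM against 11.5 to 14.3 CPM in the other GK cultures. Mcm5 rose by 2.47 ± 0.17 and Mcm2 by 1.94 ± 0.14 on the log2 scale. Mcm6 (1.23) and Mcm7 (0.90), which with Uhrf1, Ccne1, E2f1, Pcna and Rrm2 were picked for mention after their values were seen, also rose.

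Lig1, the ligase that seals lagging-strand fragments, stood at 54.6, 35.1 and 53.9 CPM in GK+mL and 18.2, 13.8 and 17.5 CPM in GK (log2 fold change 1.51 ± 0.12, adjusted p = 3.71e-08). Uhrf1, which brings the maintenance methylase Dnmt1 to newly copied DNA, rose from 2.94 ± 1.70 CPM to 25.7 ± 9.68 CPM (SD, n = 3), a log2 fold change of 3.18 ± 0.32 (SE). Ccne1, cyclin E1, rose by 2.21 ± 0.23 on the log2 scale. E2f1 rose by 1.85 ± 0.22. Pcna, the sliding clamp, was an abundant member and rose by 0.85 ± 0.14, from 76.5 ± 10.9 CPM to 138.9 ± 15.4 CPM (SD). Rrm2 did not pass. It stood at 52.8, 181.0 and 94.5 CPM in GK+mL and 39.1, 159.4 and 105.9 CPM in GK, and varied more between mice than between groups.

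The 10 raised genes with the smallest p were Mcm3, Mcm4, Mbd1, Mcm5, Mcm2, Cdk2, Rbl1, Wdhd1, Lig1 and Slfn9. Mbd1, a reader of methylated DNA, stood at 239.1, 212.3 and 308.6 CPM in GK+mL and 98.3, 105.6 and 130.1 CPM in GK. Cdk2, the kinase partner of cyclin E, rose by 1.01 ± 0.08 on the log2 scale. Rbl1, a pocket protein that binds E2F factors, rose by 1.65 ± 0.13. Wdhd1, which ties the helicase to DNA polymerase alpha, rose by 2.00 ± 0.16. Slfn9, of the Schlafen family, rose by 2.40 ± 0.20, with GK values of 7.26, 2.40 and 3.60 CPM.

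**Figure D2:**
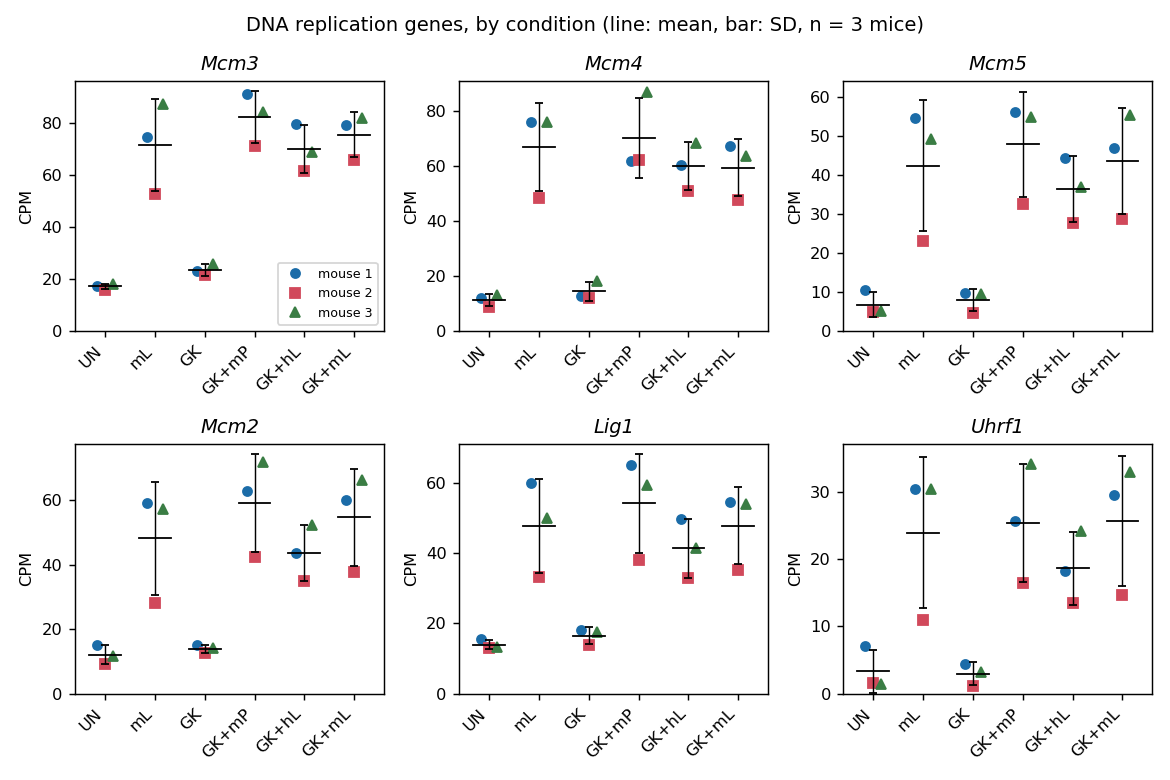
CPM of 6 replication genes in 6 conditions. Symbols are the 3 mice, lines the means and bars the SD. In each panel the GK+mL samples lie above the UN and GK samples of every mouse, for Mcm3 at 65.7 to 82.0 CPM, and close to mL, GK+mP and GK+hL.

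The promoters of the raised genes are shown because these genes moved together. Windows of 300 bases, 270 before and 30 after the annotated start of the canonical transcript (Gencode M39, GRCm39), were searched on both strands for the E2F-type letters TTTCGCGC, TTTGGCGC and TTTCCCGC, which can overlap. At least 1 of the 3 stood in 3.0% of the 12176 windows, in 35 of the 219 raised genes (16%), in 15.4% of the 188 raised genes outside the replication list, and in 1.82% of the 55 lowered genes. Of the 10 raised genes with the smallest p, 5 held a match. These 5 are printed with the match in capitals. In Mcm5 a pair of matches on opposite strands overlap:
Mcm3, chr1:20890507-20890806, minus strand: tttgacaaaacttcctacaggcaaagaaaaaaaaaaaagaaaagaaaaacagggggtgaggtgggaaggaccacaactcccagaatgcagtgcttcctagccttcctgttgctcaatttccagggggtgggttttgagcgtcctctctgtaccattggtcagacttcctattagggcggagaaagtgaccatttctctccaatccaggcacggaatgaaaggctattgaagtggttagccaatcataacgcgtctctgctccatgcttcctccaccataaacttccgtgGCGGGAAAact
Mcm4, chr16:15455235-15455534, minus strand: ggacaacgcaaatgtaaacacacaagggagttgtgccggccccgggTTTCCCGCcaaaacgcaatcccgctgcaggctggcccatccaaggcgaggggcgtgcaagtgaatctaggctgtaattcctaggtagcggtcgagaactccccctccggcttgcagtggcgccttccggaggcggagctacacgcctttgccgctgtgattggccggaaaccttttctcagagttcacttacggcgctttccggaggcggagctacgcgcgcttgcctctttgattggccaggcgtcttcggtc
Mcm5, chr8:75835870-75836169, plus strand: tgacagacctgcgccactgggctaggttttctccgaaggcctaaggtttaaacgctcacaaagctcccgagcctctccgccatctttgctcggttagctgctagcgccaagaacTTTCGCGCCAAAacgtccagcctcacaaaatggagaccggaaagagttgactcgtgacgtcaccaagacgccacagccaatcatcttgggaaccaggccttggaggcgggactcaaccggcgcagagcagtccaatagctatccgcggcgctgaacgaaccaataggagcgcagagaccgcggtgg
Cdk2, chr10:128540934-128541233, minus strand: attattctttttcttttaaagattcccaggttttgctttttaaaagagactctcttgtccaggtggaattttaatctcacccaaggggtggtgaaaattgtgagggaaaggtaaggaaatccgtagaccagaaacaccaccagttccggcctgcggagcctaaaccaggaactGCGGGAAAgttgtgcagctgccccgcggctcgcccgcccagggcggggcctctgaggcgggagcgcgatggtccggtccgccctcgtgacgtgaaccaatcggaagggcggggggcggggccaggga
Rbl1, chr2:157046446-157046745, minus strand: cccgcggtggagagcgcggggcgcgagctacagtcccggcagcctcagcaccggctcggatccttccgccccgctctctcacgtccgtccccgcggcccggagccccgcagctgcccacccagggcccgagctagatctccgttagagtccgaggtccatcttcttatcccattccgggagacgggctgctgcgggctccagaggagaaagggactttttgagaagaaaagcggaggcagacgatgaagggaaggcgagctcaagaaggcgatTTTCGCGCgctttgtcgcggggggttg
A match describes letters in a window and is no evidence that a factor was bound.

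The replication genes rose with mouse GKRP-446L at endogenous GK too, in samples that share no library with GK+mL and GK. There, mL against UN raised 304 genes (2.5%) and lowered 82 (0.673%). Among the 219 genes raised in GK+mL against GK, 156 were also raised in mL against UN, which is 71.2% of the first set and 51.3% of the second. Of the 55 lowered genes 29 were shared, 52.7% and 35.4%. All 55 lowered genes had a negative log2 fold change in mL against UN, and 213 of the 219 raised genes a positive one. Over all genes the median in mL against UN was 0. Both contrasts come from the same mice and the same fit, so they are not fully independent. Of the replication list 32 of 44 were raised in mL against UN, with a median log2 fold change of 1.24. Mcm3 rose there by 2.04 and Uhrf1 by 2.87 on the log2 scale.

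The replication genes changed little with GK alone. In GK against UN 42 genes were raised (0.345%), of which 1 was in the replication list, Mcm3 (0.45), and the median over the 44 genes was 0.09. UN cells carried no vector, and mL and GK cells carried 1 each. The other GKRP vectors moved the list as well, each measured against the same GK samples. In GK+mP against GK, 432 genes were raised (3.55%) and 344 lowered (2.83%), with 36 of the 44 raised and a median of 1.29. In GK+hL against GK, 195 were raised (1.6%) and 111 lowered (0.912%), with 28 of the 44 raised and a median of 0.96.

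**Figure D3:**
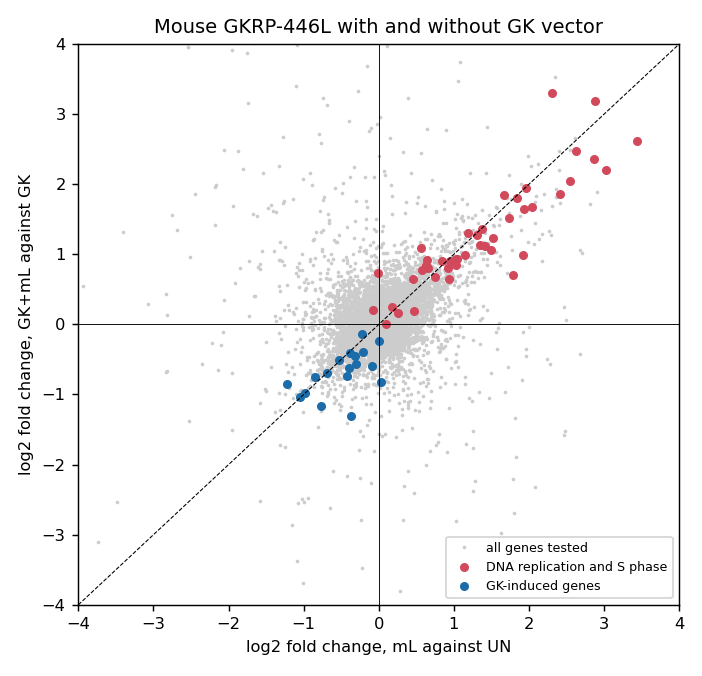
Log2 fold change of each gene for GK+mL against GK (vertical) and mL against UN (horizontal), which share no samples. Red points are the replication list, blue points the GK-induced list, grey points all genes, and the dashed line marks equal change. The replication genes lie along the line, with medians of 1.02 and 1.24, and 205 genes fall outside the axes at 4. Over all genes the Pearson correlation was -0.184 and the Spearman correlation 0.34.

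Whether GKRP-446L acted differently with and without GK was tested as the difference of the 2 fold changes. No gene passed in either direction in edgeR (0%), with 215 genes above and 204 below at an unadjusted p under 0.05 and a smallest adjusted p of 0.437. DESeq2 called 25 and 2. Of the replication list 30 of 44 had a smaller fold change with GK than without, with a median difference of -0.10. For Mcm3 the difference was -0.36, and for Ccne1 -0.82.

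GK-induced genes. The list of 18 genes holds 17 that the study names as induced by GK, and Txnip, which it names as induced by high glucose. The 17 were chosen on these samples, many of them also for falling with GKRP or for differing between its leucine and proline forms. Neither their direction under GK nor their behaviour with any GKRP form below is therefore independent evidence. GK raised 13 of the 18 against UN here (0.345% of all genes), with a median log2 fold change of 1.42. The same GK samples enter both contrasts, with opposite sign. With mouse GKRP-446L added, all 18 had negative log2 fold changes in GK+mL against GK, and the median was -0.66. Of the 18, 3 were lowered (0.452% of all genes) and none raised (1.8% of all genes). In 17 of 18 the GK+mL sample was lower than the GK sample in every mouse (18.6% of all genes). At an unadjusted p under 0.05, 14 of 18 were lower (6.23% of all genes). In 5 of 18 all GK+mL samples lay below all GK samples (5.69% of all genes). The median difference was -0.38 in mouse 1, -0.54 in mouse 2 and -0.75 in mouse 3. With mouse 3 left out, or without the block, none of the 18 passed.

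The 3 lowered genes were Pklr, Slc2a2 and Lhx6. Pklr encodes the liver pyruvate kinase, the last step of glycolysis and a textbook ChREBP target. It stood at 99.7, 84.7 and 121.3 CPM in GK+mL, 177.8, 120.9 and 228.6 CPM in GK, and 115.2, 55.7 and 96.8 CPM in UN. Every mouse fell, and the groups overlapped, since the highest GK+mL sample stood just above the lowest GK sample. The log2 fold change was -0.75 ± 0.14 (SE; adjusted p = 0.00391). Slc2a2, the glucose transporter GLUT2, stood at 33.8, 60.7 and 33.3 CPM in GK+mL and 61.8, 91.6 and 89.2 CPM in GK, with no overlap (-0.97 ± 0.26, adjusted p = 0.0435). Lhx6, a LIM homeobox factor, was scarce, at 2.09, 4.12 and 3.31 CPM in GK+mL and 5.72, 8.29 and 9.03 CPM in GK (-1.30 ± 0.31, adjusted p = 0.0204).

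The other 15 did not pass. Slc25a44, a mitochondrial carrier of branched-chain amino acids, had an adjusted p of 0.0375 and a log2 fold change of -0.45, short of the fold required. Txnip, an arrestin that limits glucose uptake, stood at 53.7, 152.1 and 191.5 CPM in GK+mL and 98.0, 273.8 and 344.4 CPM in GK. The value was lower in each mouse, and the mice differed more than the groups (-0.85 ± 0.28, adjusted p = 0.115). G6pc1, the catalytic subunit of glucose-6-phosphatase, had -1.04 ± 0.44 at 2.62, 7.70 and 8.45 CPM in GK+mL. Hcn3, a channel gene, had -1.17 ± 0.39 and Angptl8, an inhibitor of lipoprotein lipase, -0.74 ± 0.36. Rgs16, a regulator of G-protein signalling, had -0.70 ± 0.34. Klf10, a Krüppel-like repressor, had -0.62 ± 0.21, and Tkfc, triokinase, -0.41 ± 0.14. The smallest shift was that of Slc17a4, a phosphate and urate carrier, with -0.14 ± 0.38.

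Expressed as the mean level relative to GK alone, the 18 genes had a median of 64.8% in GK+mL. The same median was 27.9% in GK+mP, 36.0% in GK+hL, 27.2% in mL and 38.5% in UN, all relative to the same GK samples. Rgs16 kept 63.9% of its GK level in GK+mL and 12.4% in GK+mP. For Txnip the values were 55.5% and 12.3%, and for Slc17a4 96.8% and 28.0%. Lhx6 was the single gene of the 18 whose GK+mL level, 41.3%, lay below its UN level, 49.1%. Against mL alone, GK still raised 10 of the 18 in the presence of mouse GKRP-446L, with a median log2 fold change of 1.31 and 27 genes raised in all (0.222%).

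**Figure D4:**
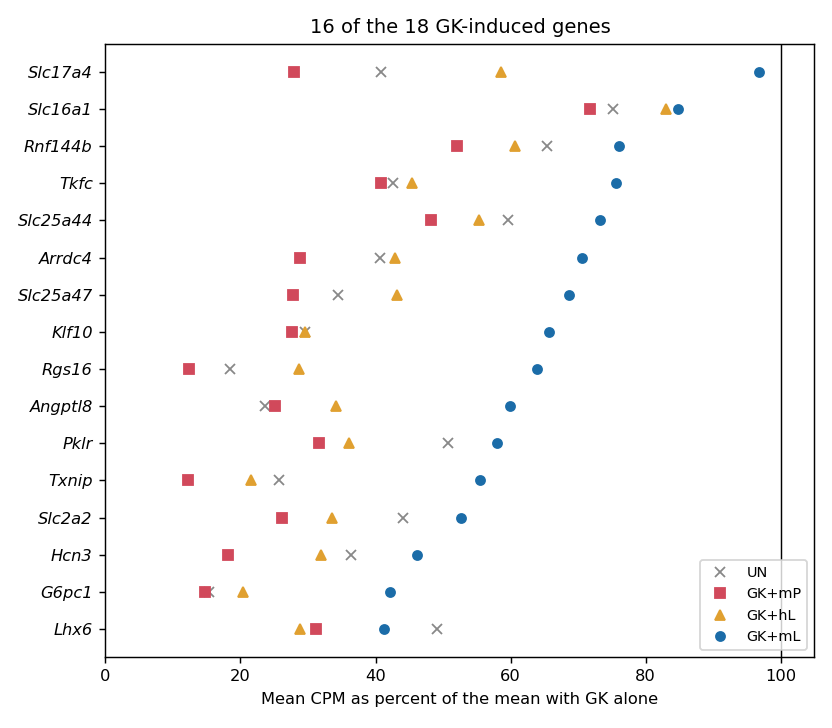
Mean CPM of 16 of the 18 GK-induced genes as a percent of the mean with GK alone (black line at 100), for UN, GK+mP, GK+hL and GK+mL (n = 3 mice each). The GK+mL points lie from 41.3% to 96.8%, to the right of GK+mP and GK+hL in all 16 genes shown.

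Promoter windows of 2 GK-induced genes are shown because ChREBP binds paired E-box-like elements. The letters CACGTG stood in 9.5% of all windows and in 11.1% of those of the 18 genes. The paired letters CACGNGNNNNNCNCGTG stood in 0.0493% of all windows, and of the 18 genes in that of Pklr. Capitals mark matches to either on both strands:
Pklr, chr3:89043609-89043908, plus strand: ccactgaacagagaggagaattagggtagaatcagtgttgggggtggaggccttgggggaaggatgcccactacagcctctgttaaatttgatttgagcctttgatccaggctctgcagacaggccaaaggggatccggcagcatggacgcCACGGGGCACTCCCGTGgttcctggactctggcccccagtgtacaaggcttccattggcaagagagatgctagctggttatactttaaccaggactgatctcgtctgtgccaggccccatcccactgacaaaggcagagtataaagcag
Arrdc4, chr7:68398970-68399269, minus strand: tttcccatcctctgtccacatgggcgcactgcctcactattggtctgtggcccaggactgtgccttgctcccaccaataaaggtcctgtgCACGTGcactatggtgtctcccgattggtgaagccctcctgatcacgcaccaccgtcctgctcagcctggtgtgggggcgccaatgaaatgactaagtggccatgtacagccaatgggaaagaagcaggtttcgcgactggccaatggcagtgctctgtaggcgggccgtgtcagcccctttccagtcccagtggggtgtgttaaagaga
Txnip and Rgs16 held neither in this window.

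GK+mL against GK+mP. This comparison sets the leucine form of mouse GKRP beside the proline form at the same number of vectors. GK-induced genes were among those higher with the leucine form. In all, 22 genes were higher (0.181%) and 3 lower (0.0246%). Without GK culture 5 the counts were 18 and 2. Of the 22, 9 belonged to the 18 GK-induced genes, and 13 had been raised by GK against UN. All 18 had positive log2 fold changes, with a median of 1.24, which describes genes that the study picked partly on this contrast. Among the 9 were Txnip, Rgs16, Pklr, Tkfc, Klf10, Slc25a44 and Slc25a47. The calls depended on the animals. Leaving out mouse 1, mouse 2 or mouse 3 left 9, 1 and 2 genes higher, of which 7, 0 and 2 were in the list. Without the block 2 genes were higher, 1 of them in the list.

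The 6 genes with the smallest p were Ulk1, Txnip, Cln8, Tkfc, Pfkfb3 and Rgs16. Ulk1, the kinase that starts autophagy, stood at 34.2, 102.7 and 85.6 CPM in GK+mL and 18.4, 53.4 and 37.5 CPM in GK+mP (log2 fold change 1.02 ± 0.13, adjusted p = 0.00102). It was higher in each mouse, while the groups overlapped. Txnip stood at 13.0, 37.4 and 37.7 CPM in GK+mP, below every GK+mL sample (2.13 ± 0.30, adjusted p = 0.00272). Tkfc stood at 297.5, 383.4 and 339.4 CPM in GK+mL and 188.4, 192.9 and 168.9 CPM in GK+mP, with no overlap (0.89 ± 0.14, adjusted p = 0.0102). Rgs16 stood at 20.7, 45.1 and 23.2 CPM in GK+mL and 6.89, 7.55 and 2.84 CPM in GK+mP (2.30 ± 0.38, adjusted p = 0.0102). Pfkfb3, which makes the glycolytic activator fructose-2,6-bisphosphate, was higher by 1.02 ± 0.17, and Cln8, a protein of the endoplasmic reticulum, by 0.61 ± 0.09. The 3 lower genes, named after their values were seen, were Hhex (-0.52), Mtmr11 (-0.60) and Foxa2 (-0.61). Hhex and Foxa2 are transcription factors of the liver.

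The replication genes did not separate the leucine and proline forms. None of the 44 passed in GK+mL against GK+mP. The median log2 fold change was -0.18, with 39 of 44 below 0. For Mcm3 the difference was -0.12 ± 0.09 (SE), for Mcm4 -0.24 ± 0.11 and for Uhrf1 -0.01. In CPM the message of the leucine form was lower than that of the proline form in 3 of 3 mice, with a log2 ratio of Gckr of -0.53 ± 0.13 (SD, n = 3; exact test on signs within mice, p = 0.25, two-sided, the smallest possible). In TPM the ratio was -0.76 ± 1.38, with 1 of 3 mice higher. The part of this difference in the results above was not tested.

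**Figure D5:**
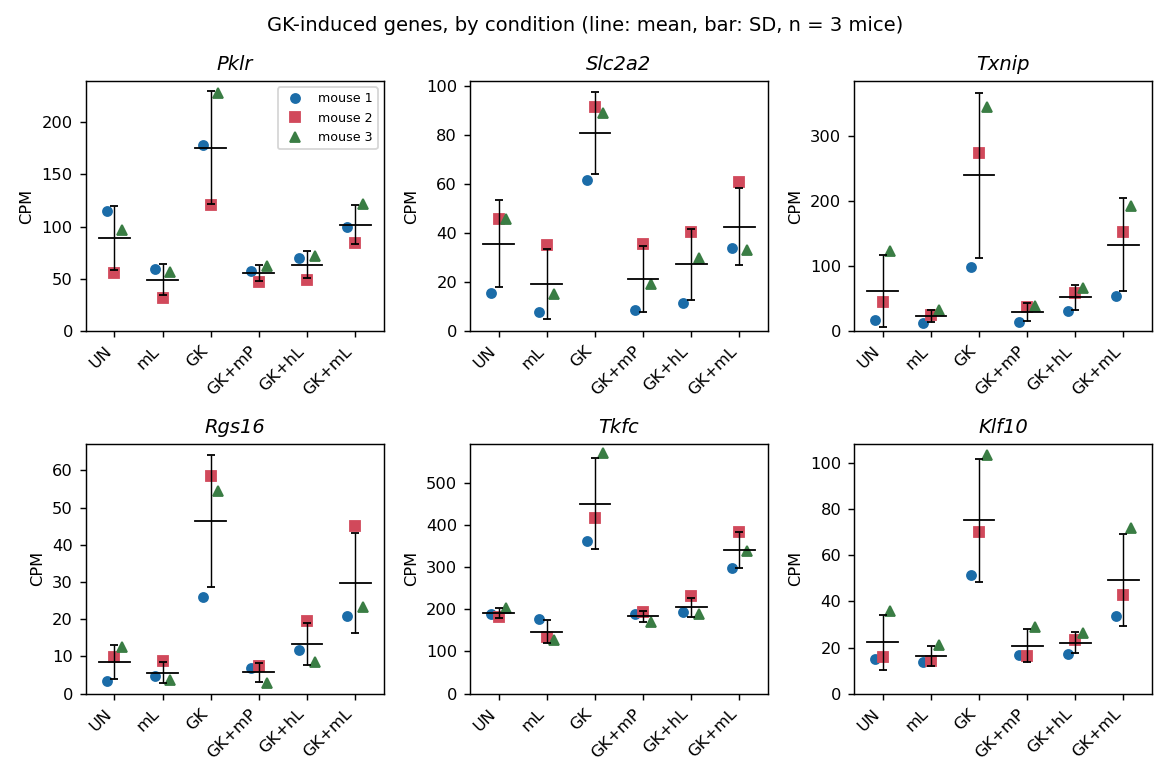
CPM of 6 GK-induced genes in 6 conditions. Symbols are the 3 mice, lines the means and bars the SD. GK+mL lies between GK and GK+mP in the means of all 6 genes, for Tkfc at 340.1 between 450 and 183.4 CPM.

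GK+mL against GK+hL. Mouse and human GKRP-446L were compared directly. Gckr was the single gene called (0.00821%), with 46.2 to 70.1 CPM in GK+hL, and none was lower (0%). Reads were quantified on mouse transcripts, so the message of the human vector was not measured. The call of Gckr follows from that, and it does not compare the amounts of GKRP message. At an unadjusted p under 0.05, 374 genes were higher and 406 lower, and DESeq2 called 22 and 13. All 18 GK-induced genes were higher with the mouse form, with a median log2 fold change of 0.70, and none passed. The replication list had a median of 0.08.

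The other lowered genes of GK+mL against GK were of mixed function. The 10 with the smallest p were Mal2, Trp53inp2, Trim7, Tmem170, Rras2, Myadm, Uhmk1, Ctdsp2, Clcn5 and Dusp11, and in each the groups did not overlap (5.69% of all genes). They were picked by p on these same samples, so the lack of overlap is no separate evidence. Without mouse 3, 6 genes of all tested were lowered. Mal2, a membrane trafficking protein of polarised cells, stood at 63.1, 55.5 and 52.9 CPM in GK+mL and 99.6, 79.8 and 87.2 CPM in GK (-0.63 ± 0.08, adjusted p = 5.96e-05). Trp53inp2, an autophagy factor, fell by 1.22 ± 0.17 on the log2 scale. Uhmk1, a nuclear kinase, fell by 1.07 ± 0.17. Clcn5, an endosomal chloride and proton exchanger, fell by 0.94 ± 0.16. Trim7, a ubiquitin ligase that binds glycogenin, fell by 0.88 ± 0.13, from 57.4 ± 4.71 CPM to 31.2 ± 3.33 CPM (SD, n = 3). Rras2, a small GTPase, fell by 0.59 ± 0.09. GK alone moved none of the 10 past the threshold against UN. In GK+mL against GK+mP none of the 10 passed.

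In the list of the ChREBP system and its targets, which overlaps the GK-induced list, 18 of 20 members were tested. Of these 2 were lowered and none was raised, and the median was -0.47. Over all genes 0.452% were lowered and 1.8% raised. All 18 were below 0, 14 were lower in every mouse (18.6% of all genes), and 10 were lower at an unadjusted p under 0.05 (6.23% of all genes). The members shared with the GK-induced list are no independent evidence, for the reason given there. With mouse 3 left out, or without the block, none passed. With an offset for effective transcript length none passed and 4 were above 0. The other metabolic lists held few calls. Of 22 glycolytic and gluconeogenic genes 2 were lowered, and these were again Pklr and Slc2a2. Bhlhe40, a circadian repressor from the ChREBP list, had -0.44 ± 0.11 and an adjusted p of 0.029, short of the fold. Of 20 lipogenic genes none passed, and without GK culture 5 Elovl6 was lowered (-0.52). Acly, ATP citrate lyase, had -0.50 ± 0.15 (adjusted p = 0.0777). Elovl6, a fatty acid elongase, had -0.51 ± 0.12 (adjusted p = 0.0176), Me1, malic enzyme, -0.33 ± 0.08 (adjusted p = 0.0192), and both missed the fold. No member of the hexokinases (5), the pentose phosphate pathway (8), fatty acid oxidation and ketogenesis (18), or cholesterol excretion and bile acids (14 of 16 tested) passed. The list medians were -0.20, -0.10, 0.00 and 0.14. Abcg5, a part of the sterol exporter, had 0.72 ± 0.24 (adjusted p = 0.117). Fgf21, Pnpla3, Cyp7a1 and Nr0b2 fell under the filter.

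Of 25 genes of cholesterol synthesis, Insig1, which retains the SREBP proteins in the endoplasmic reticulum, was raised (0.44 ± 0.10, adjusted p = 0.0209), and none was lowered. Over all genes 1.8% were raised. With any 1 mouse left out, or without the block, no gene of this list passed. Of 15 genes of the ATF4 and unfolded protein response, Chac1, a glutathione-degrading enzyme, was raised (1.33 ± 0.32, adjusted p = 0.0215). Its GK+mL values were 14.1, 11.5 and 41.4 CPM, with mouse 3 well above the others. Here too no gene of the list passed with any 1 mouse left out or without the block. None of 19 interferon genes, 14 p53 targets or 11 immediate early genes tested passed. Dusp1, a phosphatase of MAP kinases, had -0.41 ± 0.08 (adjusted p = 0.00669), short of the fold. Ddit3, a transcription factor of the stress response, had 0.55 ± 0.19 (adjusted p = 0.13). Sesn2, a stress-induced inhibitor of mTORC1 from the p53 list, had 0.43 ± 0.13 (adjusted p = 0.0834), and Cdkn1a, the CDK inhibitor p21, 0.24 ± 0.09 (adjusted p = 0.214). The medians of the interferon, p53 and immediate early lists were 0.04, 0.10 and -0.04.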

How the data were processed

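RNA was sequenced from 36 cultures of primary hepatocytes. The authors checked the reads with FastQC, did not trim them, and quantified them with Salmon 1.4.0 on the Gencode M26 transcripts of GRCm39. The deposited files give estimated counts and TPM per transcript and culture. Salmon divides reads among transcripts, so genes that share sequence are uncertain. TPM as deposited by the authors is corrected for transcript length and served only as an alternative for Gckr.

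Estimated counts were summed to genes with Gencode M39 names (98.8% of transcripts matched, and unmatched transcripts held 0.392 to 0.639% of reads) and rounded, and the 2 UN or GK cultures of a mouse were added, which gave 30 samples. Genes were filtered with filterByExpr (12176 of 52230 kept) and fitted in edgeR 4.0.16 (R 4.3.3, TMM, quasi-likelihood F test) with condition and mouse as terms and Benjamini-Hochberg adjustment over all genes tested. All adjusted p-values in the text come from this fit unless named otherwise. SE is the log2 fold change divided by the root of F. Calls needed an adjusted p under 0.05 and a fold of at least 1.3 or at most 0.7. Exact permutation tests were two-sided. DESeq2 1.42.0 was an alternative.

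The pairing comes from the labels, which name the animal. Deviations of GK and GK+mL from their group means correlated by 0.334, 0.395 and -0.0589 in mice 1, 2 and 3. In simulated data for GK+mL against GK, edgeR recovered 63 of 67 genes changed 2-fold with a mean count of 50 or more and 9 of 33 with fewer. The simulated spread between samples was set smaller than the spread estimated in these data. The test on the real data may therefore recover a smaller share.

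The comparisons and gene lists were chosen with earlier results of these data known. Genes named were Gckr, in each direction the 10 called genes of smallest p that moved alike in 3 mice, members of the list of 18 GK-induced genes, up to 4 genes of smallest p per list, and up to 6 called genes of smallest p in each other test. Other genes are named as chosen after their values were seen. Some genes that this rule takes are not reported here. Promoter sequence is from GRCm39. Alternatives were the block, the conditions in the model, the normalization, the filter, the test, the cultures, the effective length, the fold and single mice or libraries.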

Additional observations from a re-analysis of the deposited data

Results flagged for a closer look

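The 6 GK cultures were compared with each other for each named gene, and 6 values stood apart from the other 5. With 6 independent values about 1 in 20 genes would show such a gap by chance, and many genes were compared. The 6 cultures are pairs from 3 mice, so this rate is a rough guide. Whether the number of gaps differs from chance was not tested. GK culture 5, from mouse 3, held 1462 CPM of Gckr against 51.84 to 98.04 CPM in the others, and 22.33 CPM of Mcm4 against 11.5 to 14.26 CPM. GK culture 3 held 544.6 CPM of H6pd (657.3 to 720.4 in the others). GK culture 2 held 12.11 CPM of Gpr146 (5.416 to 6.277). GK culture 1 held 224.3 CPM of Cdkn1a (264.6 to 283.4) and 2.717 CPM of Ddit3 (4.233 to 4.795).

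Among the genes that the naming rule took, the effect of mouse GKRP-446L had opposite signs in every mouse with and without GK for 2. Other genes were not searched for this, and some would show it by chance. Rpia, of the pentose phosphate pathway, had a log2 fold change of -0.262 with GK and 0.453 at endogenous GK. Clec4g, an endothelial lectin, had 0.786 with GK and -0.328 at endogenous GK. The difference did not pass edgeR's interaction test in either (adjusted p = 1.0).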

How the results depend on the processing

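For GK+mL against GK, raised and lowered genes numbered 68 and 4 with no replicate block, 1 and 0 with no block and the conditions of endogenous GK as 1 group, 21 and 4 with only the groups compared, and 12 and 0 with an offset for effective transcript length. DESeq2 called 262 and 91 (204 and 55 shared with edgeR), the 36 cultures as samples gave 310 and 87, and no fold threshold gave 238 and 140. Almost no filter gave 153 and 67. Leaving out 1 mouse gave 51 to 125 raised and 6 to 57 lowered. Against GK+mP, the counts of 22 and 3 became 2 and 0 without the block, 1 and 0 with endogenous GK as 1 group, 66 and 21 in DESeq2, 12 and 0 with 36 cultures, 0 and 0 with only the groups compared or the length offset, 19 and 0 with almost no filter, and 1 to 9 and 0 to 1 with 1 mouse left out. Without GK culture 5 they were 18 and 2. Against GK+hL, 1 and 0 became 0 and 0 with endogenous GK as 1 group, 22 and 13 in DESeq2 and 2 and 0 with 36 cultures, and 1 to 3 raised with 1 mouse left out. The interaction, 0 and 0, became 25 and 2 in DESeq2. It could not be fitted with endogenous GK as 1 group.

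Of 1453 values of named genes under the alternatives, 1278 kept direction and side of the threshold, 134 lost the call, 24 gained one and 17 changed sign. With the length offset, which raised the biological coefficient of variation from 0.231 to 0.457, 20 of the 26 called genes lost the call, and signs changed for Tkfc (0.094), Txnip (0.26), Gpi1 (0.52), Me1 (0.51), Ehhadh (-0.17), Pdk4 (0.49), Zbp1 (-0.205), Hnf4a (0.15), Cps1 (-0.35), Cd68 (0.29), Reln (0.84) and Dcn (-0.16). Of the replication list 5 of 44 were then raised. With single mice left out, Slc17a4 ranged from -0.48 to 0.20, Ehhadh from -0.015 to 0.34, Ier2 from -0.15 to 0.96 and Sox9 from -0.50 to 0.17. The Gckr-rich GK culture changed 2 of the 26 calls.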

Other observations

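Several heat shock chaperone genes were among the genes raised in GK+mL against GK. They were picked after their values were seen, from no fixed list, so nothing is said here of chaperones as a group. Hspa8, the constitutive HSP70, stood at 6940, 3403 and 4743 CPM in GK+mL and 3863, 2209 and 2519 CPM in GK. It was higher in each mouse, and the groups overlapped (log2 fold change 0.79 ± 0.08). Hsph1, a nucleotide exchange factor of HSP70, rose by 0.88 ± 0.09, Dnajb1, an HSP40, by 0.80 ± 0.12, and Hsp90aa1, an HSP90, by 0.48 ± 0.09 on the log2 scale. The HSP90 partners Fkbp4 (0.56 ± 0.10) and Ahsa1 (0.42 ± 0.08) passed as well. Hspa1b, the inducible HSP70, rose by 2.13 ± 0.41, and its reads cannot be separated with certainty from those of its near-identical neighbour. The mitochondrial chaperones Hspd1 (0.20 ± 0.08, adjusted p = 0.264) and Hspe1 (0.24 ± 0.17, adjusted p = 0.577) did not pass. In mL against UN, Hspa8 had 0.80 and Hsph1 0.74 on the log2 scale.

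The pseudogene Krt8-ps stood at 257.1, 0.537 and 48.2 CPM in GK+mL and at 0.454, 0.799 and 0.240 CPM in GK, and 2 of 3 mice were higher. Krt8, the keratin it resembles, stood at 2733, 5833 and 4484 CPM and at 5476, 6325 and 5039 CPM. How reads were divided between the pair is uncertain.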
